A study of Mus musculus with 3 samples.

Results

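The genes described are 10 genes that mark or drive stages of the spermatogonial lineage, of 21774 protein-coding genes on the nuclear chromosomes of the mouse RefSeq annotation. They were chosen by name: *Zbtb16*, *Gfra1*, *Id4*, *Nanos2*, *Nanos3*, *Kit*, *Stra8*, *Sohlh1*, *Dazl*, and *Lin28a*. DNA methylation was measured by whole-genome bisulfite shotgun sequencing of spermatogonia sorted from testes at postnatal day 7 (P7) with an antibody against EpCAM, a surface protein of epithelial and germ cells. The mice were labelled strain C57BL6/J and were WT, *Pld6* KO, or *Dnmt3l* KO. *Pld6* encodes a mitochondrial protein needed to make piRNAs, and *Dnmt3l* encodes a cofactor of the *de novo* DNA methyltransferases without catalytic activity of its own. By the study's methods, mice of *Pld6*+/+, *Pld6*+/-, and *Dnmt3l*+/- genotype served as WT, and which of them the WT library stands for is not given in the sources used here. By those methods the study had biological replicates of each genotype, but the files used here hold 1 library for each, and what sets the genotypes apart cannot be told apart from what sets the libraries apart.

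Spermatogonia at this age are a mixture of stem cells, undifferentiated progenitors, and differentiating cells. GDNF signalling and the factors PLZF (*Zbtb16*), ID4, and NANOS2 keep cells in the undifferentiated state, whereas retinoic acid brings on KIT and STRA8 and leads toward meiosis. In mammalian genomes, promoters rich in CpG sites are mostly free of methylation whether or not the gene is active, and promoters poor in CpG sites are mostly methylated. In the male germline, methylation is laid down anew before birth, in prospermatogonia.

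In GRCm38, the genes of the undifferentiated state lie as follows: *Zbtb16* at chr9:48651797-48836225 (minus strand, 7 exons), *Gfra1* at chr19:58235581-58455398 (minus strand, 11 exons), *Id4* at chr13:48261116-48266028 (plus strand, 3 exons), *Nanos2* at chr7:18987524-18988962 (plus strand, 1 exon), *Nanos3* at chr8:84173759-84176552 (minus strand, 2 exons), and *Lin28a* at chr4:134003330-134018816 (minus strand, 4 exons). The genes of differentiation and the germ-cell gene *Dazl* are *Kit* at chr5:75574987-75656722 (plus strand, 21 exons), *Stra8* at chr6:34920948-34939344 (plus strand, 9 exons), *Sohlh1* at chr2:25842995-25847248 (minus strand, 8 exons), and *Dazl* at chr17:50279393-50293620 (minus strand, 11 exons). Other annotated genes lie in, or within 3 kb of the start of, *Zbtb16* (*Gm32280* on the other strand), *Gfra1* (*Gm46650*, *Gm10007*, and *Gm41876*), *Id4* (*A330033J07Rik* on the other strand), and *Nanos3* (*Mir181c* and *Mir181d*), and calls there cannot be assigned to either gene alone.

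A promoter core was taken as 0.5 kb on each side of the transcription start, the shores as the stretches from 0.5 to 3 kb on each side, and the gene body as the transcript from 0.5 kb inside the start. The body therefore overlaps the downstream shore. The methylation level is the share of methylated calls among all calls at the CpG sites of a region, given as a fraction, with an exact 95% binomial interval that covers counting error only. All 10 genes had at least 10 calls in each library in each kind of region, and so no gene was left out.

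The 10 cores differed widely in their number of CpG sites. The 4 stretches printed here, of 250 bases that end just before the start, show the range from a promoter packed with CpG sites to one without any. They are RefSeq sequence of GRCm38, written 5′ to 3′ on the strand of the gene with each CG in capitals. *Id4* (chr13:48260866-48261115, plus strand) is shown as the core with the most CpG sites, *Dazl* (chr17:50293621-50293870, minus strand) as the one whose levels differed most between the knockouts among the CpG-rich cores, *Sohlh1* (chr2:25847249-25847498, minus strand) as a core of intermediate content, and *Nanos2* (chr7:18987274-18987523, plus strand) as a CpG-poor one.
Id4: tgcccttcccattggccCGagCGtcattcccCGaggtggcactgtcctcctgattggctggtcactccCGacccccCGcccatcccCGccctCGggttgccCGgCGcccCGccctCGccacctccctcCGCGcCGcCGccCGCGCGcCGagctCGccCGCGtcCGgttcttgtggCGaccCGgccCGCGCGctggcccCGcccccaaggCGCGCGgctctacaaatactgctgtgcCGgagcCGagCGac
Dazl: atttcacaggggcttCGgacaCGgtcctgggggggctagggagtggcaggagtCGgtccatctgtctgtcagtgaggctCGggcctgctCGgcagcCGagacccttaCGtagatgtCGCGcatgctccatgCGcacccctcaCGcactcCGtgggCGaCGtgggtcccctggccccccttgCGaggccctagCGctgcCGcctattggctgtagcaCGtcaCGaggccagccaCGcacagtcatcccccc
Sohlh1: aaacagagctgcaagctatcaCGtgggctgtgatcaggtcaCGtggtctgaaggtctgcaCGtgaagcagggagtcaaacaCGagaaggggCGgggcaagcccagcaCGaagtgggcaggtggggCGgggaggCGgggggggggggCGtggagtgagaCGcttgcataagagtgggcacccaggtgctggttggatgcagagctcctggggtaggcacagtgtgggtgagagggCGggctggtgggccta
Nanos2: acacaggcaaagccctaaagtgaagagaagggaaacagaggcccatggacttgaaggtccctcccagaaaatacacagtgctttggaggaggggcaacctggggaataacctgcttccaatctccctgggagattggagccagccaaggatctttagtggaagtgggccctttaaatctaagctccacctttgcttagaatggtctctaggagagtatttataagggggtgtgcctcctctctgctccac

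The stretch of *Id4* held 35 CpG sites, that of *Dazl* 20, that of *Sohlh1* 11, and that of *Nanos2* 0. All CpG sites of the *Nanos2* core that had a level thus lay farther upstream or inside the gene. Over the whole core the number of CpG sites was 93 at *Id4*, 78 at *Zbtb16*, 76 at *Kit*, 70 at *Dazl*, 60 at *Gfra1*, 35 at *Lin28a*, 30 at *Stra8*, 29 at *Sohlh1*, 14 at *Nanos2*, and 13 at *Nanos3*. The letters CACGTG, the E-box read by many basic helix-loop-helix proteins and the same on both strands, stood at 3 places in the *Sohlh1* stretch, at bases 20, 40, and 59, and in none of the other 9 genes' stretches. Of all promoters, 6.66% held them in the same window. *Sohlh1* itself encodes such a protein, and no binding was measured here.

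There were 43757722 calls in the WT library, 64076569 in that of *Pld6* KO, and 19289688 in that of *Dnmt3l* KO, which makes the levels of the last the least precise. Over all sites the pooled level was 0.703, 0.722, and 0.301, in this order. The identity of the cells was checked at promoters that are methylated on 1 allele in somatic cells and unmethylated in male germ cells. Over 6 such cores (*Kcnq1ot1*, *Peg3*, *Snrpn*, *Mest*, *Plagl1*, and *Peg10*) WT had a level of 0.0409, *Pld6* KO of 0.0558, and *Dnmt3l* KO of 0.0173. *Snrpn* stood apart with 11 methylated calls of 25 in WT, and without it the levels were 0.0295, 0.0574, and 0.0125. A stretch 2 to 4 kb before *H19*, which male germ cells methylate on both alleles, had 0.859, 0.884, and 0.148. The last value cannot serve as a check of identity, because *Dnmt3l* itself takes part in *de novo* methylation.

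In WT, 8 of the 10 cores had a level under 0.2, against 77.5% of all genes, and those of *Nanos2* and *Nanos3* were above it. Among the genes of the undifferentiated state, *Zbtb16*, which encodes the zinc-finger repressor PLZF, had 0 methylated calls of 243 in WT, 0 of 171 in *Pld6* KO, and 0 of 83 in *Dnmt3l* KO, which allows levels of up to 0.0123, 0.0175, and 0.0361. *Gfra1*, the GDNF co-receptor, had 1 methylated call of 204 in WT, 4 of 215 in *Pld6* KO, and 0 of 57 in *Dnmt3l* KO. *Id4*, an inhibitor of basic helix-loop-helix factors, had 0 of 166, 2 of 260, and 0 of 125. These 3 cores were below 0.02 in every library. The interval of *Gfra1* in *Pld6* KO was 0.00509 to 0.0469. An exact interval leaves out 0 wherever at least 1 call is methylated, so that this alone does not set *Gfra1* apart.

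*Nanos2* encodes an RNA-binding protein that keeps male germ cells undifferentiated, and its core was methylated in WT. The level was 0.821 in WT (23 of 28 calls, 95% interval 0.631 to 0.939), 0.839 in *Pld6* KO (52 of 62 calls, 0.723 to 0.92), and 0.214 in *Dnmt3l* KO (3 of 14 calls, 0.0466 to 0.508). The intervals of WT and *Pld6* KO overlapped, and the *Dnmt3l* KO interval lay below both others. The decrease from WT to *Dnmt3l* KO was 0.607 (adjusted p = 0.00641, two-sided Fisher's exact test on calls, adjusted by Benjamini-Hochberg over all genes). Such a test compares the libraries and counts linked calls as if each were independent, which can make its p-values too small.

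*Nanos3*, a related RNA-binding protein of early germ cells and undifferentiated spermatogonia, gave a core level of 0.826 in WT (19 of 23 calls), 0.842 in *Pld6* KO (32 of 38), and 0.455 in *Dnmt3l* KO (5 of 11). It was lower in *Dnmt3l* KO by 0.372, but the 95% intervals overlapped (0.612 to 0.95 in WT and 0.167 to 0.766 in *Dnmt3l* KO), and the difference did not pass Fisher's exact test after adjustment (adjusted p = 0.341). Of the 13 CpG sites of this core, 6 had a call in *Dnmt3l* KO.

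*Lin28a*, which encodes an RNA-binding protein that blocks let-7 maturation and is found in undifferentiated spermatogonia, had 0 methylated calls of 87 in WT, 0 of 106 in *Pld6* KO, and 0 of 34 in *Dnmt3l* KO. *Kit*, the receptor of stem cell factor and a mark of differentiating spermatogonia, had 0 of 190, 1 of 278, and 0 of 66. Both cores were unmethylated in all 3 libraries, save for 1 call at *Kit* in *Pld6* KO. The 66 calls in *Dnmt3l* KO allow a *Kit* level of up to 0.0455.

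The cores of *Stra8*, *Sohlh1*, and *Dazl* carried a low level of methylation in WT and *Pld6* KO, and no methylated call was seen in *Dnmt3l* KO. *Stra8*, induced by retinoic acid at meiotic entry, had 0.0588 in WT (4 of 68 calls), 0.163 in *Pld6* KO (16 of 98), and 0 in *Dnmt3l* KO (0 of 29, which allows up to 0.103). *Sohlh1*, a transcription factor of differentiating spermatogonia, had 0.155 in WT (11 of 71 calls), 0.113 in *Pld6* KO (13 of 115), and 0 in *Dnmt3l* KO (0 of 35, which allows up to 0.0857). Counted from the outermost start that RefSeq lists for *Stra8*, 785 bp upstream, the decrease in *Dnmt3l* KO was 0.315, with 24 calls in *Dnmt3l* KO, and 3 of 10 cores would then be lower by at least 0.3. Neither gene's decrease in *Dnmt3l* KO passed Fisher's exact test (adjusted p = 1 for *Stra8* and 0.133 for *Sohlh1*). At the CpG sites inside the 3 E-boxes of *Sohlh1*, 1 of 9 calls was methylated in WT, 1 of 8 in *Pld6* KO, and 0 of 8 in *Dnmt3l* KO.

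*Dazl* encodes a germ-cell RNA-binding protein, and its promoter is one of those kept methylated in somatic tissues. Its core level was 0.0345 in WT (6 of 174 calls, 95% interval 0.0128 to 0.0735), 0.117 in *Pld6* KO (30 of 256, 0.0805 to 0.163), and 0 in *Dnmt3l* KO (0 of 74, which allows up to 0.0405). The interval in *Pld6* KO lay above that in WT, and Fisher's exact test between these libraries gave p = 0.00224 before and 0.197 after adjustment. Between *Pld6* KO and *Dnmt3l* KO the difference passed Fisher's exact test (adjusted p = 0.00516), as did that of *Nanos2* (adjusted p = 0.000267), 2 of 10 cores against 11.3% of all genes. In the printed stretch and the site at its end, *Pld6* KO had 17 methylated calls of 117, and they fell on 17 of 21 sites with 1 methylated call at each. WT had 3 of 86 there, and *Dnmt3l* KO 0 of 11. Counts per site do not tell which calls came from the same read. The pooled level of the imprinted cores without *Snrpn* was also higher in *Pld6* KO (0.0574 against 0.0295 in WT), through *Mest*, *Plagl1*, and *Peg10*, while *Kcnq1ot1* (0.0700 against 0.0780) and *Peg3* (0.0359 against 0.0692) were lower, and their part in the higher levels of *Dazl* and *Stra8* was not tested.

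**Figure D1:**
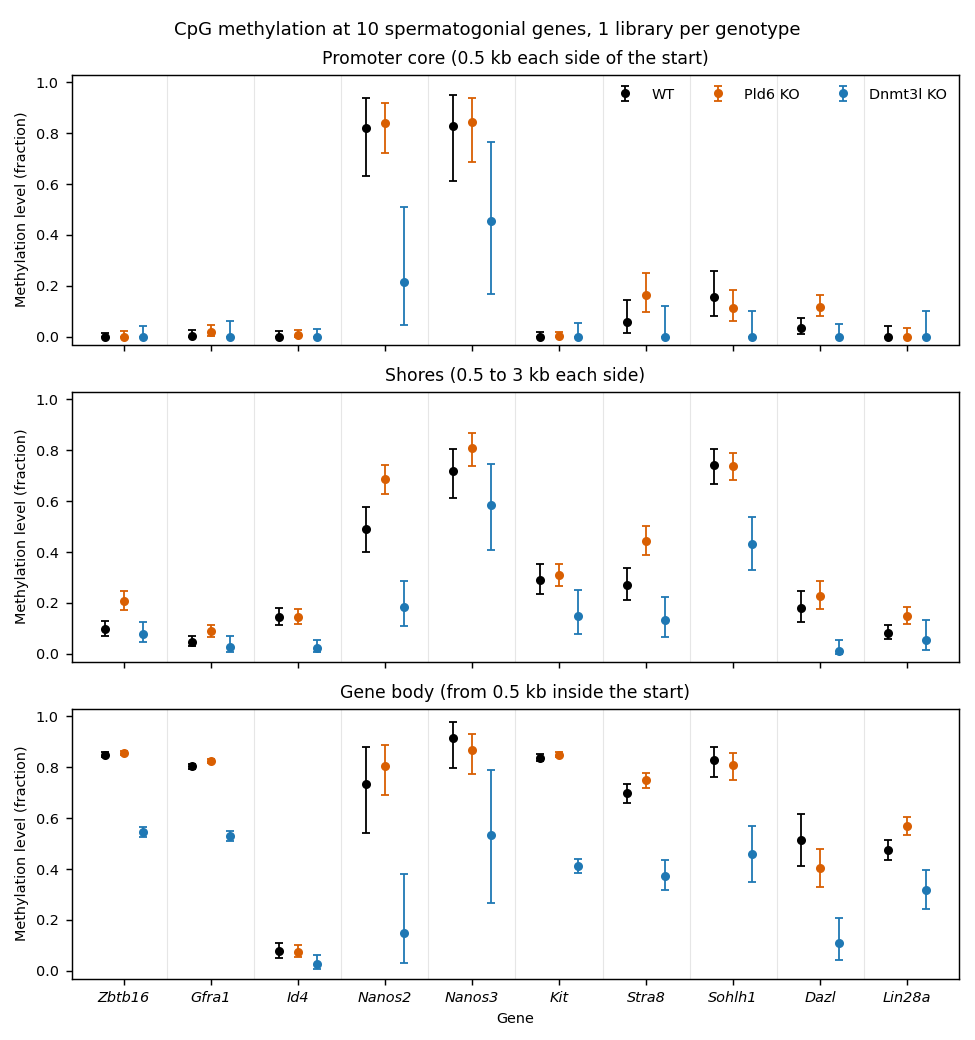
Methylation level (fraction, y axis) of the promoter core, the shores, and the gene body of the 10 genes (x axis) in WT (black), *Pld6* KO (orange), and *Dnmt3l* KO (blue), with exact 95% intervals on calls, 1 library each. Only *Nanos2* and *Nanos3* have core levels over 0.2 in WT, and all 10 bodies are lowest in *Dnmt3l* KO.

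Counted over the genes, 2 of 10 cores were lower in *Dnmt3l* KO than in WT by at least 0.3 as a fraction. Over all genes 11.2% of cores were, and 84.7% of those that had a WT level of at least 0.3. By Fisher's exact test 1 of 10 cores was lower, against 9.4% of all genes. In *Pld6* KO, 0 of 10 cores were lower by at least 0.3 (0.344% of all genes), and 0 were lower (0.156%) or higher (0.349%) by Fisher's exact test. At an unadjusted p under 0.05, *Dazl* was higher and the others did not pass. Only *Nanos2* and *Nanos3* had a WT core level of at least 0.3. The cores of the other genes could not be lower by that much in either knockout.

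The level of a core went with its number of CpG sites as it did over all genes. Genes with at most 20 CpG sites in the core had a median WT level of 0.809, those with 21 to 40 sites a median of 0.0256, and those with over 40 sites a median of 0.00403. *Nanos2* and *Nanos3* belong to the first class, of which 63.8% were lower in *Dnmt3l* KO by at least 0.3. *Stra8*, *Sohlh1*, and *Lin28a* belong to the second (10.3%), and the other 5 to the third (0.0347%). *Sohlh1* was the gene that stood farthest above its class in WT, at 0.155. In *Pld6* KO, *Stra8* (0.163) and *Sohlh1* (0.113) were above the median of 0.0309 of the second class. *Dazl* (0.117), *Gfra1* (0.0186), and *Id4* (0.00769) were above that of 0.00556 of the third. In these classes *Zbtb16*, *Kit*, and *Lin28a* were below the median of their class in *Pld6* KO. Both *Nanos* cores in *Dnmt3l* KO were above the median of 0.176 of the first class, with intervals that reached it. The classes describe the cores, and the number of sites was not set apart from other features that go with it.

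**Figure D2:**
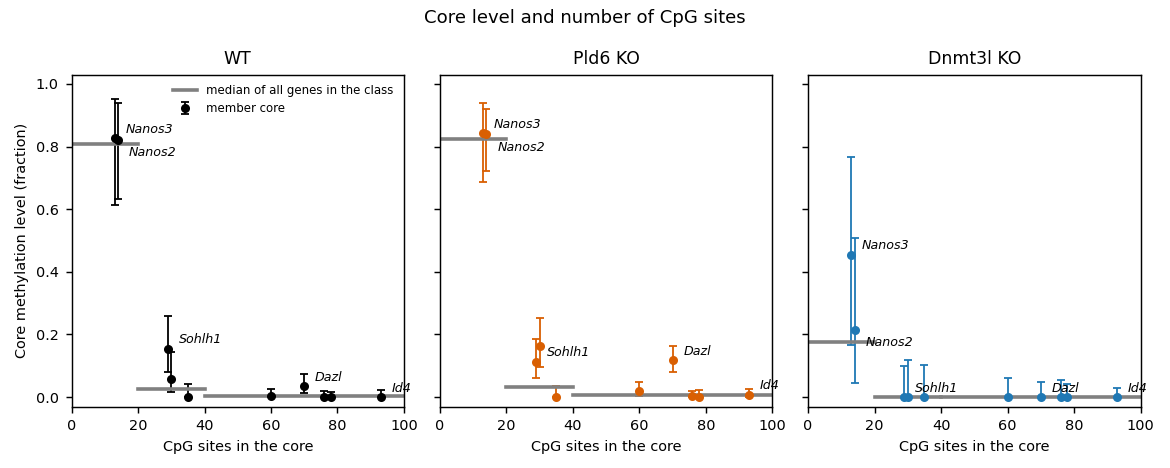
Methylation level of the core (fraction, y axis) against its number of CpG sites (x axis) for the 10 genes in each library, with exact 95% intervals, and the median over all genes with at most 20, 21 to 40, or over 40 sites (grey lines, the last drawn to 100 sites). *Nanos2* and *Nanos3*, at 14 and 13 sites, are the only cores over 0.2 in WT.

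The profile around the start showed how far each unmethylated stretch reached. It was followed outward in bins of 100 bp as long as bins with calls had a level under 0.2, and the width has 1 value per library with no error. In WT it was 3700 bp at *Lin28a*, 3600 at *Zbtb16*, 3500 at *Gfra1*, 3400 at *Id4*, 2800 at *Kit*, 2000 at *Dazl*, 1300 at *Stra8*, 600 at *Sohlh1*, and 0 at *Nanos2* and *Nanos3*. The broad stretches thus belonged to genes of the undifferentiated state and to *Kit* alike.

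In *Dnmt3l* KO the stretch at *Dazl* measured 7400 bp, 2800 bp of it upstream and 4600 bp downstream. Its far downstream part rests on almost no data, with 0 methylated calls of 2 from 1500 to 1999 bp and no call at all from 2000 to 4499 bp. The stretch was also wider than in WT at *Lin28a* (4900 bp), *Id4* (4300), *Gfra1* (3700), *Stra8* (1600), *Sohlh1* (1200), *Nanos2* (800), and *Nanos3* (200), and narrower at *Zbtb16* (3100) and *Kit* (2200). In *Pld6* KO it was narrower than in WT at *Zbtb16* (2400 bp), *Gfra1* (2700), *Id4* (3200), *Stra8* (200), *Sohlh1* (200), *Dazl* (1500), and *Lin28a* (2400), and wider at *Kit* (2900) and *Nanos3* (200). A width can end at a single bin with few calls, and bins without calls were passed over, which is more frequent in *Dnmt3l* KO with 47.5% of CpG sites covered than in WT with 66.5% or *Pld6* KO with 74.2%.

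At *Nanos2* most methylated calls of the core lay inside the gene. In the 0.5 kb after the start the level was 0.957 in WT (22 of 23 calls), 0.855 in *Pld6* KO (47 of 55), and 0.231 in *Dnmt3l* KO (3 of 13). In the 0.5 kb before the start there were only 5, 7, and 1 calls. At *Nanos3* the same 0.5 kb inside the gene had 19 methylated calls of 23, 32 of 37, and 5 of 9. The core levels of both genes therefore rest on sites within the transcribed sequence and say little of the bases just upstream.

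At *Dazl* the upstream flank held methylated calls in WT and *Pld6* KO and none in *Dnmt3l* KO up to 2500 bp from the start. In the 500 bp that begin 2500 bp upstream, 6 of 19 calls were methylated in WT, 9 of 18 in *Pld6* KO, and 0 of 3 in *Dnmt3l* KO. In the 500 bp that begin 1500 bp upstream they were 8 of 56, 6 of 20, and 0 of 23. At *Stra8* the 0.5 kb next to the core on the upstream side had 8 of 18 calls methylated in WT, 39 of 63 in *Pld6* KO, and 2 of 23 in *Dnmt3l* KO, so that this flank was partly methylated in WT and *Pld6* KO.

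**Figure D3:**
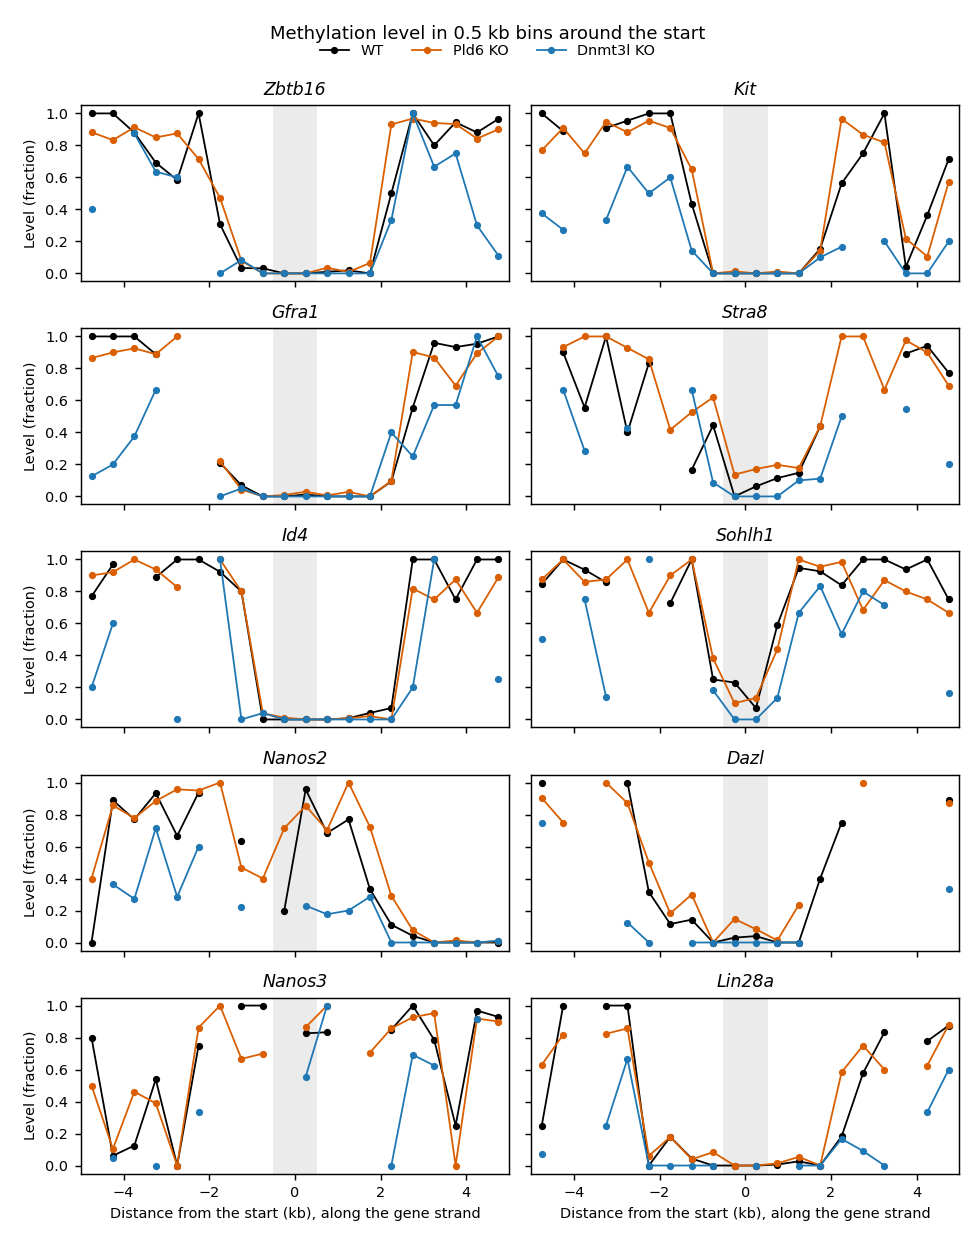
Methylation level (fraction, y axis) in bins of 0.5 kb over 5 kb on each side of the start (x axis, kb along the strand of the gene, upstream on the left) for the 10 genes in WT (black), *Pld6* KO (orange), and *Dnmt3l* KO (blue). Bins with under 3 calls are not drawn and break the lines, and the core is shaded. The dip at the start spans several bins at *Zbtb16*, *Gfra1*, *Id4*, *Kit*, and *Lin28a*, and is narrow at *Sohlh1*. At *Nanos3* the bin before the start has too few calls to be drawn in any library, and a dip there cannot be judged.

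All 10 genes had a lower level in the shores in *Dnmt3l* KO than in WT, as had 98.2% of all genes, but the size varied. At *Nanos2* the shores had 0.489 in WT (64 of 131 calls), 0.687 in *Pld6* KO (184 of 268), and 0.185 in *Dnmt3l* KO (15 of 81). At *Sohlh1* they had 0.741 (126 of 170), 0.739 (207 of 280), and 0.430 (40 of 93). These were the genes whose shores were lower by at least 0.3, 2 of 10 against 46.5% of all genes, and *Nanos2* just passed with 0.303. The shores of *Zbtb16*, *Gfra1*, *Id4*, *Kit*, *Stra8*, *Dazl*, and *Lin28a* were under 0.3 in WT and could not be lower by that much. The median WT level of the shores was 0.225 over the 10 genes and 0.492 over all genes. *Nanos3*, in which the shores were the most methylated of the 10 in *Dnmt3l* KO, had 0.717 (66 of 92), 0.808 (122 of 151), and 0.583 (21 of 36).

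By Fisher's exact test 6 of 10 genes had lower shores in *Dnmt3l* KO, namely *Id4*, *Nanos2*, *Kit*, *Stra8*, *Sohlh1*, and *Dazl*, against 80.2% of all genes. *Zbtb16* (0.0964 in WT and 0.0789 in *Dnmt3l* KO), *Gfra1* (0.0477 and 0.0282), and *Lin28a* (0.0833 and 0.0548) were under 0.1 in WT already and did not pass. Split by side, the upstream shore was lower by at least 0.3 at *Id4* (0.554, 51 of 92 calls, to 0.0976, 4 of 41) and *Nanos2* (0.756 to 0.290), 2 of 10 against 55.1% of all genes. The downstream shore was lower by that much only at *Sohlh1* (0.790, 109 of 138 calls, to 0.419, 31 of 74), 1 of 10 against 40.8%. The genes with WT shores under 0.3 also had WT downstream shores under 0.3. Upstream, *Zbtb16*, *Gfra1*, *Dazl*, and *Lin28a* were under it in WT. *Id4* was thus lower in *Dnmt3l* KO upstream of its unmethylated stretch, while its downstream shore was at 0.0388 in WT already.

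In *Pld6* KO, no gene had shores lower than in WT by at least 0.3 (0 of 10, 0.494% of all genes) or by Fisher's exact test (0 of 10, 1.47%). Higher shores passed that test in 4 of 10 genes, against 10.4% of all genes. By the adjusted exact test they were *Zbtb16* (0.0964 in WT, 43 of 446 calls, to 0.208 in *Pld6* KO, 106 of 509, adjusted p = 0.000164), *Stra8* (0.270, 57 of 211, to 0.445, 137 of 308, adjusted p = 0.00210), *Nanos2* (adjusted p = 0.00416), and *Lin28a* (0.0833, 33 of 396, to 0.148, 70 of 474, adjusted p = 0.0404). At *Zbtb16* the difference depended on which sites were read, and WT minus *Pld6* KO went from -0.112 to -0.0423 over sites covered in all 3 libraries, and from -0.131 to -0.0137 in the downstream shore alone. Over such sites it was -0.119 at *Nanos2*, -0.236 at *Stra8*, and -0.0901 at *Lin28a*. *Id4*, *Kit*, and *Sohlh1* differed by 0.016 or less in the shores. The pooled level of the library was higher too (0.722 against 0.703), and its part was not tested. The average levels that the study reports have WT slightly above *Pld6* KO instead.

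**Figure D4:**
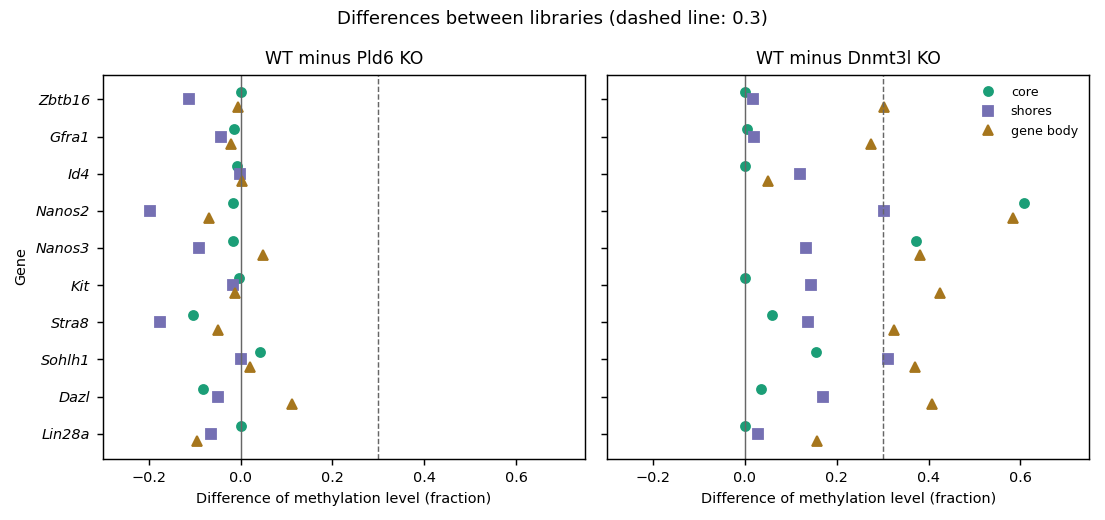
Difference of the methylation level between WT and *Pld6* KO (left) and between WT and *Dnmt3l* KO (right) for the core (circles), the shores (squares), and the gene body (triangles) of the 10 genes. Values to the right of 0 are lower in the knockout, and the dashed line marks 0.3. In *Pld6* KO all values lie between -0.198 and 0.113, and in *Dnmt3l* KO the 2 *Nanos* genes are the only ones with a core beyond the line.

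The gene bodies were methylated in WT except at *Id4*, and every one had a lower level in *Dnmt3l* KO. In WT the level was 0.850 at *Zbtb16*, 0.804 at *Gfra1*, 0.837 at *Kit*, 0.698 at *Stra8*, 0.828 at *Sohlh1*, 0.915 at *Nanos3*, 0.733 at *Nanos2*, 0.515 at *Dazl*, 0.474 at *Lin28a*, and 0.0769 at *Id4*. *Id4* is a gene of 4913 bp, and the unmethylated stretch takes up much of it. In *Dnmt3l* KO 7 of 10 bodies were lower by at least 0.3, against 69.7% of all genes. By Fisher's exact test all 10 of 10 were lower, against 93.5%.

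*Nanos2* had the largest decrease of the 10 bodies, from 0.733 (22 of 30 calls) to 0.150 (3 of 20). *Kit* went from 0.837 (2286 of 2732 calls, 95% interval 0.822 to 0.850) to 0.413 (492 of 1192, 0.385 to 0.441). *Dazl* went from 0.515 (51 of 99) to 0.108 (7 of 65), *Sohlh1* from 0.828 (144 of 174) to 0.458 (38 of 83), and *Stra8* from 0.698 (407 of 583) to 0.374 (102 of 273). *Zbtb16* fell from 0.850 (5104 of 6008) to 0.547 (1366 of 2497), a decrease of 0.302 that just passed the mark, and *Gfra1* from 0.804 (4633 of 5765) to 0.529 (1311 of 2478), one of 0.275 that just missed it. The other 2 under the mark were *Lin28a* (0.474, 289 of 610, to 0.316, 50 of 158) and *Id4* (0.0769, 29 of 377, to 0.0275, 5 of 182). The body includes the downstream shore, which had little methylation to lose. It had 19 methylated calls of 249 in WT and 2 of 31 in *Dnmt3l* KO at *Lin28a*, and 15 of 359 and 3 of 91 at *Gfra1*. With that shore left out, the body from 3 kb inside the start was lower by at least 0.3 at both genes. *Gfra1* then passed the mark only narrowly. Both were thus under the mark only where the body took in this shore.

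In *Dnmt3l* KO the bodies therefore had different levels. *Zbtb16* (0.547, 95% interval 0.527 to 0.567) and *Gfra1* (0.529, 0.509 to 0.549), the 2 longest genes with 184429 and 219818 bp, had intervals that overlapped, and both lay above *Kit* (0.413, 0.385 to 0.441). *Nanos3* (0.533, 0.266 to 0.787) and *Sohlh1* (0.458, 0.348 to 0.571) could not be placed against them, as their intervals were wide. *Stra8* (0.374, 0.316 to 0.434) and *Lin28a* (0.316, 0.245 to 0.395) followed, *Nanos2* (0.150, 0.0321 to 0.379) overlapped with both and with *Dazl* (0.108, 0.0444 to 0.209), and *Id4* was lowest (0.0275, 0.00898 to 0.0629), with an interval that overlapped that of *Dazl*. These levels include the downstream shore, which held 48 of the 65 calls at *Dazl* (0 methylated) and 31 of the 158 at *Lin28a* (2 methylated). At *Kit* it held 50 of 1192 calls (2 methylated). The order is therefore not one of the bodies beyond the shore.

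In *Pld6* KO, 0 of 10 bodies were lower by at least 0.3 (0.189% of all genes) and 0 were lower by Fisher's exact test (4.87%). By the same exact test *Gfra1* (0.804 in WT and 0.825 in *Pld6* KO, adjusted p = 0.0103) and *Lin28a* (0.474 and 0.569, adjusted p = 0.00467) were higher, 2 of 10 against 12.4% of all genes. For *Lin28a* the rise depended on which sites were read. Over sites covered in all 3 libraries WT and *Pld6* KO differed by 0.0297, while the decrease in *Dnmt3l* KO grew to 0.386. The largest difference in the other direction was that of *Dazl*, 0.515 in WT and 0.402 in *Pld6* KO (adjusted p = 0.231, Fisher's exact test). Over sites covered in all 3 libraries that difference was 0.0490, and over the body from 3 kb inside the start WT minus *Pld6* KO was -0.0442.

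Within the bodies, pooled over the 10 genes, WT had 0.809 at intronic and 0.618 at exonic sites, *Pld6* KO had 0.826 and 0.689, and *Dnmt3l* KO had 0.494 and 0.393. The genes did not share this order. In WT, exons had the lower level at *Gfra1* (0.533, 153 of 287 calls, against 0.818), *Lin28a* (0.314 against 0.566), *Sohlh1* (0.797 against 0.848), and *Zbtb16* (0.836 against 0.850), and the higher level at *Kit*, *Stra8* (0.865 against 0.682), *Dazl* (21 of 24 calls against 30 of 75), *Nanos3* (16 of 16 calls against 27 of 31), and *Id4* (0.130 against 0.0169). At *Kit* exons were at 0.919 (306 of 333 calls) and introns were at 0.825 (1980 of 2399) in WT, and 0.519 (69 of 133) and 0.399 (423 of 1059) in *Dnmt3l* KO. At *Lin28a* the exons had a higher level in *Dnmt3l* KO (0.600, 21 of 35 calls) than in WT (0.314, 70 of 223), but over sites covered in all 3 libraries they had 0.594 (19 of 32) against 0.912 (52 of 57). Over those sites the WT introns of *Lin28a* had 0.660 (159 of 241), so that the order of exons and introns in WT turned too. It also turned at *Sohlh1*, with 0.797 at exons (47 of 59 calls) and 0.785 at introns (51 of 65), and at no other gene. Sites that the reference marks as repeats had 0.827, 0.817, and 0.460, and the other sites 0.790, 0.812, and 0.487, so that both kinds of site were lower in *Dnmt3l* KO than in WT.

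In windows of 1 kb over the genes and 10 kb on each side, 253 of 423 windows were lower in *Dnmt3l* KO by at least 0.3 (59.8%, against 62.4% of such windows over all genes). Only 1 window, in *Zbtb16*, was higher by that much, with 0.600 in WT (10 calls) and 0.92 in *Dnmt3l* KO (25 calls), against 0.0208% over all genes. In *Pld6* KO, 4 of 670 windows were lower (0.597%, against 1.18% over all genes) and 11 were higher (1.64%, against 1.36%). Of the lower windows 2 were in *Zbtb16*, both inside the gene. The one with more calls, chr9:48795797-48796796, had 0.970 in WT over 33 calls, 0.625 in *Pld6* KO over 72, and 0.385 in *Dnmt3l* KO over 13. The other 2 were at *Gfra1*, inside the gene at chr19:58285581-58286580 (0.933, 15 calls, and 0.600, 25 calls) and beyond its end at chr19:58227581-58228580 (0.719, 32 calls, and 0.362, 47 calls). Of the 11 higher windows 2 lay inside *Kit*, 1 inside *Gfra1*, and the others in flanks or at edges of *Id4*, *Stra8*, *Nanos2*, and *Nanos3*.

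The same regions were read in 2 further lists of genes of the lineage, chosen by name with earlier results known. Of 22 genes of stem and undifferentiated cells, 21 had enough calls in the core, and 1 core was lower by at least 0.3 in *Dnmt3l* KO, that of *Tspan8*, a tetraspanin on the surface of stem-cell-rich spermatogonia (0.814 in WT, 43 calls, and 0.304 in *Dnmt3l* KO, 23 calls). Of 21 genes of differentiation, meiotic entry, and their signals and relatives, 20 had enough calls and 0 were lower, against 11.2% of all genes. The median WT core level was 0.00633 and 0.0119, and 20 of 21 and 20 of 20 cores were under 0.2 in WT, against 77.5% of all genes. Cores under 0.2 could not be lower by 0.3. *Tspan8* had the only core of these lists with a WT level of at least 0.3. Over all genes, 84.7% of such cores were lower by at least 0.3. Among the 39 genes with at least 20 calls in the core in WT and *Dnmt3l* KO, *Tspan8* was followed by *Sohlh2* and *Bhmg1*. *Sohlh2*, the partner of SOHLH1, had 0.117 in WT (179 calls), 0.0859 in *Pld6* KO (198), and 0.0182 in *Dnmt3l* KO (55). *Bhmg1* had 0.0469 in WT (192 calls) and 0 in *Dnmt3l* KO (82). The 3 genes at the other end of the order, each with 1 or 2 methylated calls in *Dnmt3l* KO, were *Rara*, a retinoic acid receptor (0 in WT and 0.0103 in *Dnmt3l* KO), *Upp1* (0.00826 and 0.0189), and *Lhx1*, a GDNF target (0.00524 and 0.0185).

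In *Dnmt3l* KO 8 of 22 bodies of the first list and 12 of 21 of the second were lower by at least 0.3, against 69.7% of all genes, and by Fisher's exact test 17 of 22 and 17 of 21 were, against 93.5%. In WT, 6 of 22 bodies of the first list and 4 of 21 of the second were under 0.2 and could not be lower by 0.3. The median body level of the first list was 0.679 for WT and 0.361 for *Dnmt3l* KO, and that of the second was 0.676 and 0.345. Over all genes it was 0.800 for WT and 0.372 for *Dnmt3l* KO. In *Pld6* KO no core and no body of either list was lower by at least 0.3. *Tspan8* had a core level of 0.540 in *Pld6* KO (50 calls), below its 0.814 in WT, a difference that did not reach 0.3.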

How the data were processed

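Spermatogonia were sorted from P7 testes with an anti-EpCAM antibody, and libraries were made by post-bisulfite adaptor tagging and sequenced as single-end reads of 100 bp. By the study's methods, read ends and low-quality stretches were trimmed, and reads mapping uniquely to mm10 were called with Bismark. Its version and any removal of duplicate reads are not given in the sources used here. For each CpG site the authors deposited counts of both kinds of call, methylated and not, and a level given as a fraction. That fraction matched the counts to within 1e-06 at all sites, and the counts alone were used here. Depth was 43757722 calls for WT, 64076569 for *Pld6* KO, and 19289688 for *Dnmt3l* KO.

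Starts were those of RefSeq Select transcripts (GRCm38.p6). Every nuclear site lay at a CG of GRCm38, the assembly that mm10 names. Calls were pooled over the sites of a region, and regions with at least 10 calls in both libraries were compared. A region was called lower at a difference of at least 0.3. Fisher's exact test, two-sided, was adjusted over all genes by Benjamini-Hochberg at 0.05, separately for each kind of region and pair of libraries. Intervals are Clopper-Pearson intervals at 95%. Where 0 calls were methylated, the level that 3 calls would give is stated as the limit. No test between genotypes was made, since 1 library of each was used here. The mitochondrial chromosome was planned as a measure of incomplete conversion and could not serve, because its level was over 0.3 in all 3 libraries. All 10 genes are named, and of the further lists those 3 genes with the largest and those 3 with the smallest WT minus *Dnmt3l* KO difference of the core, among 39 that had 20 calls or more in each of these libraries. The genes, lists, and tests were chosen with earlier results of these data known. The scripts were tested on simulated data and used Python 3.11.15, numpy 2.4.6, scipy 1.17.1, and pandas 2.3.3. The alternatives changed the call and site minimums, the pooling, the sites, the starts, the widths, and the thresholds.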

Additional observations from a re-analysis of the deposited data

Results flagged for a closer look

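The mitochondrial chromosome, which no comparison uses, had a methylation level of 0.383 in *Pld6* KO (17443 of 45530 calls), above 0.354 in WT (10908 of 30797 calls). In *Dnmt3l* KO it was 0.321 (4194 of 13047 calls). It was picked out because a signal in data outside the main measurement was above its level in the control library. No level of the 10 genes was corrected for it, and 4 of their cores had 0 methylated calls in WT.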

How the results depend on the processing

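No paired analysis was possible because 1 library of each genotype was used here, and for the same reason no replicate could be left out. In *Pld6* KO the count of cores, shores, or bodies lower by at least 0.3 stayed at 0 under all alternatives run for it. In the main setting the 8 cores with a WT level under 0.2 could not be lower by that much. Nor could the shores that were under 0.3 in WT, so that for these a count of 0 says little. Of the counts for *Dnmt3l* KO, that of cores (2) became 0 with at least 20 calls per region (8 genes left), 0 with sites of at least 3 calls (7 left), 0 with sites at least 80 bp apart (5 left), and 0 with cores of 250 bp each side (8 left), all of which leave *Nanos2* and *Nanos3* with too few calls to compare. It became 1 with the mean of site levels (*Nanos3* at 0.288), 1 with sites covered in all 3 libraries (*Nanos3* left out), 1 by Fisher's exact test, and 1 with cores of 1 kb each side (*Nanos3* at 0.232). That of shores (2) became 0 with the mean of site levels, 1 with sites 80 bp apart, and 6 by Fisher's exact test, and over all genes that test called 16094 shores against 9321 by the difference. That of upstream shores (2) became 1 with sites 80 bp apart, 5 with sites covered in all 3 libraries, 4 at a difference of 0.2, and 4 by Fisher's exact test. That of downstream shores (1) became 2 with sites of at least 3 calls, 2 with sites covered in all 3 libraries, 3 at a difference of 0.2, and 5 by Fisher's exact test. That of bodies (7) became 3 with sites of at least 3 calls (7 left). For the shores and the bodies the cause was not tested. Of 298 alternative values of WT minus *Dnmt3l* KO for single regions 9 had another sign than the main value, and of 324 of WT minus *Pld6* KO 40 did.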

Other observations

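Stretches of low methylation also lay away from the starts. In the first intron of *Kit*, from 3500 to 3999 bp after the start, 1 of 25 calls was methylated in WT, 15 of 69 in *Pld6* KO, and 0 of 10 in *Dnmt3l* KO, while the 0.5 kb before it had 3 of 3, 9 of 11, and 1 of 5. Downstream of *Nanos2*, toward *Mypop*, the next protein-coding gene, the stretch from 3500 to 3999 bp after the start had 0 methylated calls of 80 in WT, 2 of 155 in *Pld6* KO, and 0 of 28 in *Dnmt3l* KO. Upstream of *Nanos3*, the 500 bp that begin 4500 bp before the start had 3 of 49, 6 of 58, and 1 of 22 calls methylated, and the 500 bp that begin 3000 bp before it had 0 of 18 in WT, 0 of 6 in *Pld6* KO, and no call in *Dnmt3l* KO.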
